A study of Mus musculus with 7 samples.

Results

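The genes of the presynaptic vesicle release machinery and the synucleins were followed in cortex from APP/PS1 mice that ate a ketogenic diet (KD) or a control diet (CD). The 40 genes were taken by symbol from the 23413 gene symbols counted in each library: 9 calcium sensors, 6 SNARE proteins and complexins, 2 genes of SNARE disassembly, 6 vesicle membrane proteins and glutamate transporters, 5 synapsin and Rab3 genes, 6 active zone genes, 4 genes of vesicle retrieval and 2 synucleins. All 7 mice carried the APPswe and PSEN1dE9 transgenes (APP/PS1, strain B6.Cg-Tg(APPswe,PSEN1dE9)85Dbo/Mmjax), were housed singly, began their diet at 6 months of age and stayed on it for 7 months until tissue was taken at 13 months. CD (called SD in the sample labels, 4 mice) gave 74% of its energy as carbohydrate, 16% as fat and 10% as protein, and KD (3 mice) gave under 0.5% as carbohydrate, 90% as fat and 10% as protein, in isocaloric amounts. Each library was made from the cortex of a single mouse, and no wild-type cortex was analysed here. The study used mice of both sexes.

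Neurons release transmitter when an action potential lets calcium into the presynaptic terminal. Vesicles are filled by transporters, held near the active zone by large scaffold proteins, primed by the assembly of the SNARE proteins, clamped by complexins, and fused when a synaptotagmin binds calcium; their membrane is then retrieved by dynamin and its partners. Many of these steps are served by related genes that are used by different neurons, so that pairs such as Syt1 and Syt2, or Vamp1 and Vamp2, do similar work in different terminals. The synucleins are small vesicle-binding proteins of the terminal.

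The libraries held between 22272883 and 36614954 counts, and the 40 genes took between 1.92% and 2.13% of them. On the first principal component of log2 CPM (CPM being counts scaled to a fixed total per library), which held 35.6% of the variance, CD replicate 4 and KD replicate 3 stood at 43.7 and 44.2 and the other 5 libraries between −25.3 and 1.31. Xist, which is transcribed from the inactive X chromosome, had 7247 to 12294 counts in 4 libraries (CD replicates 1 and 2, KD replicates 1 and 2) and 7 to 101 in the other 3, where the Y-linked Ddx3y had 7450 to 12660. The labels do not give the sex of each mouse. By Xist and Ddx3y, CD replicates 1 and 2 and KD replicates 1 and 2 came from females. CD replicates 3 and 4 and KD replicate 3 came from males, so KD replicate 3 was the only male on KD. Results are also given with and without the libraries that stood apart. Cortical excitatory neuron genes summed to between 955 and 1473 CPM in every library, which fits the labelled tissue, but genes of the hypothalamus and ventral forebrain summed to 786 CPM in KD replicate 3 against 119 to 283 CPM elsewhere, and olfactory bulb genes to 73.4 CPM in CD replicate 4 against 4.36 to 17.3 CPM elsewhere. In bulk tissue fewer cells of a type and less RNA per cell cannot be told apart.

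For KD against CD, a raw p of at most 0.05 was reached by 5 of the 40 genes, and all 5 were lower in KD: the calcium sensor Syt2, the SNARE protein Vamp1, the complexin Cplx1, the vesicle glycoprotein Sv2a and the synuclein Sncb (β-synuclein). The quasi-likelihood test of edgeR was fitted on 15881 genes, and all 40 genes passed its filter on low counts. Over all genes tested, 3.19% passed a raw p of 0.05, 1.52% lower and 1.66% higher in KD. The 5 of 40, or 12.5%, stood above that share, and none of the 40 was called higher. The 40 genes were chosen with earlier results of these data known, so this excess is not independent evidence. Among 74 other genes of the same machinery the share was 2.70%. At a raw p of at most 0.01, the quasi-likelihood test called 1 of the 40 genes, Sncb, against 51 of the 15881 genes tested (0.321%). The study used the same threshold but reported many more genes at it, so its list is not reproduced here. After Benjamini-Hochberg adjustment over all genes, 0% of the genes and none of the 40 had an adjusted p under 0.05 in edgeR, and the smallest adjusted p was 0.979. DESeq2 and limma-voom also called none of the 40 after adjustment, and each gave 5 of them a raw p of at most 0.05. The 4 CD and 3 KD libraries did not overlap in CPM for 4 of the 40 genes, Syt2, Sv2a, Dnm1 and Sncb, all lower in KD, where 2.56% of all genes were lower without overlap and 1.64% higher without overlap. The remaining 35 genes had a median log2 fold change of 0.02, and 32 of the 40 moved by less than 0.25 on the log2 scale. All told, 18 genes were lower and 22 higher, with a median log2 fold change of 0.01, beside −0.00 over all genes tested.

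**Figure D1:**
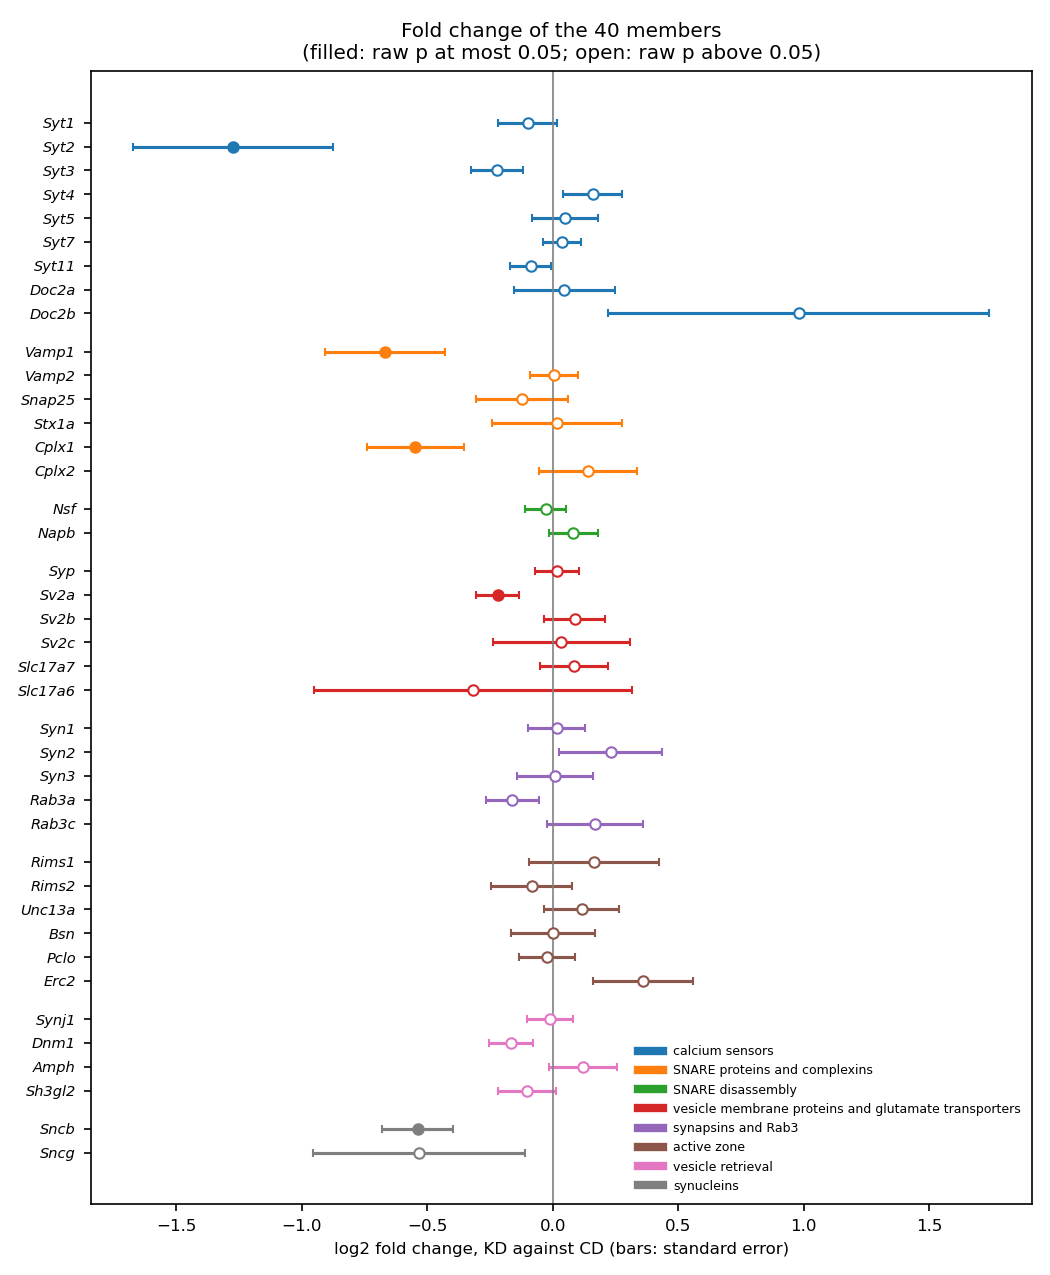
Log2 fold change of each of the 40 genes for KD against CD (horizontal axis) from edgeR, grouped and coloured by role, with bars for the standard error, filled points for a raw p of at most 0.05 and open points for a larger p. The filled points are Syt2, Vamp1, Cplx1, Sv2a and Sncb, all left of 0, while most other points lie within 0.25 of 0 and Doc2b and Slc17a6 have the widest bars.

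The sequences upstream of these 5 genes are shown because each had a raw p of at most 0.05. None of the 5 had an adjusted p under 0.05, and whether they share any regulation was not tested. A start-site table of RefSeq (GRCm38.p6) gave 40 windows, from 250 bases before to 50 after a start site, for 31 of the 40 genes. Only the 250 bases before the start site were searched in each window, and all counts below refer to them. A GC box, spelled GGCGGG and searched on both strands (CCCGCC on the other), lay in 22 of these 40 windows (55%) and in 10674 of all 32851 windows of the table (32.5%). It was found for 21 of the 31 matched genes, among them all 5 genes called above and also Syt1, Stx1a and Syp. The cAMP response element TGACGTCA, which reads the same on both strands, lay in 2 of the 40 windows (5%), those of Syn1 and Sh3gl2, and in 508 of all windows (1.55%). It was in none of the windows of the 5 genes. In the stretches below, read 5′ to 3′ on the strand of the gene and kept outside annotated exons, capitals mark the GC boxes. They come from chr1:134646521-134646611 (plus strand) for Syt2, chr6:125215331-125215550 (plus strand) for Vamp1, chr5:108550028-108550080 (minus strand) for Cplx1, chr3:96180977-96181150 (plus strand) for Sv2a and chr13:54766596-54766845 (minus strand) for Sncb.
Syt2: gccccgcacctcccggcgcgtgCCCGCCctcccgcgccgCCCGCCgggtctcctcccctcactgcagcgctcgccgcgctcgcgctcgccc
Vamp1: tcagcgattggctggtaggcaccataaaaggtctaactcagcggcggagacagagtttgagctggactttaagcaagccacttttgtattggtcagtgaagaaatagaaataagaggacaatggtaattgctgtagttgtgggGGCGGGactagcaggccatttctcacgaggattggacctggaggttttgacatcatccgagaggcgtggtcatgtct
Cplx1: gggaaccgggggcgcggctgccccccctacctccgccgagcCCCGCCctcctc
Sv2a: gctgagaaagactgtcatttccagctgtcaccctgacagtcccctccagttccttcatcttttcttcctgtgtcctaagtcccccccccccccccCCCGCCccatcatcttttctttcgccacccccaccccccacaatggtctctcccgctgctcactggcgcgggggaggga
Sncb: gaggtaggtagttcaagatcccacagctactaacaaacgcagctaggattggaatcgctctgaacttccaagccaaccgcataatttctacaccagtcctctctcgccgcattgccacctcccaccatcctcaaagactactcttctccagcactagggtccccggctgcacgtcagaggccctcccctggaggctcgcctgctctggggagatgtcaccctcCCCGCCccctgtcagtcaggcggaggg
The Syt2 stretch held 2 GC boxes and was 84.6% G or C, and the Vamp1 stretch held 1 and was 48.6% G or C. Such a match describes the letters of the window only.

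The length-scaled levels (TPM, computed here from counts per kilobase of merged exon and scaled to the same sum in each library) gave the order of the genes. Snap25, the SNARE protein of the plasma membrane, led with a median of 3292 TPM over the 7 libraries, followed by Syt1, the main calcium sensor of fast release in forebrain neurons, at 1016, and the vesicle protein Syp (synaptophysin) at 843. Snap25 and Syt1 did not overlap in any library, and neither did Syn2 and Stx1a or Doc2a and Syn3. The other 36 of 39 neighbouring pairs in this order overlapped over the 7 libraries, so the exact order between those neighbours was not resolved. Syt2 was among the lower genes at 42.2 TPM, with a range from 9.40 to 68.8, next to Slc17a6 at 42.8. The γ-synuclein gene Sncg was lowest at 3.60 TPM, from 12 to 51 counts per library. In relative terms, Doc2b, Slc17a6 and Syt2 varied most between libraries, with ratios of the highest to the lowest library of 9.38, 8.74 and 7.50 in CPM, while Syp varied least, with a ratio of 1.12. KD replicate 3 was the highest library for 12 of the 40 genes and CD replicate 4 the lowest for 12.

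**Figure D2:**
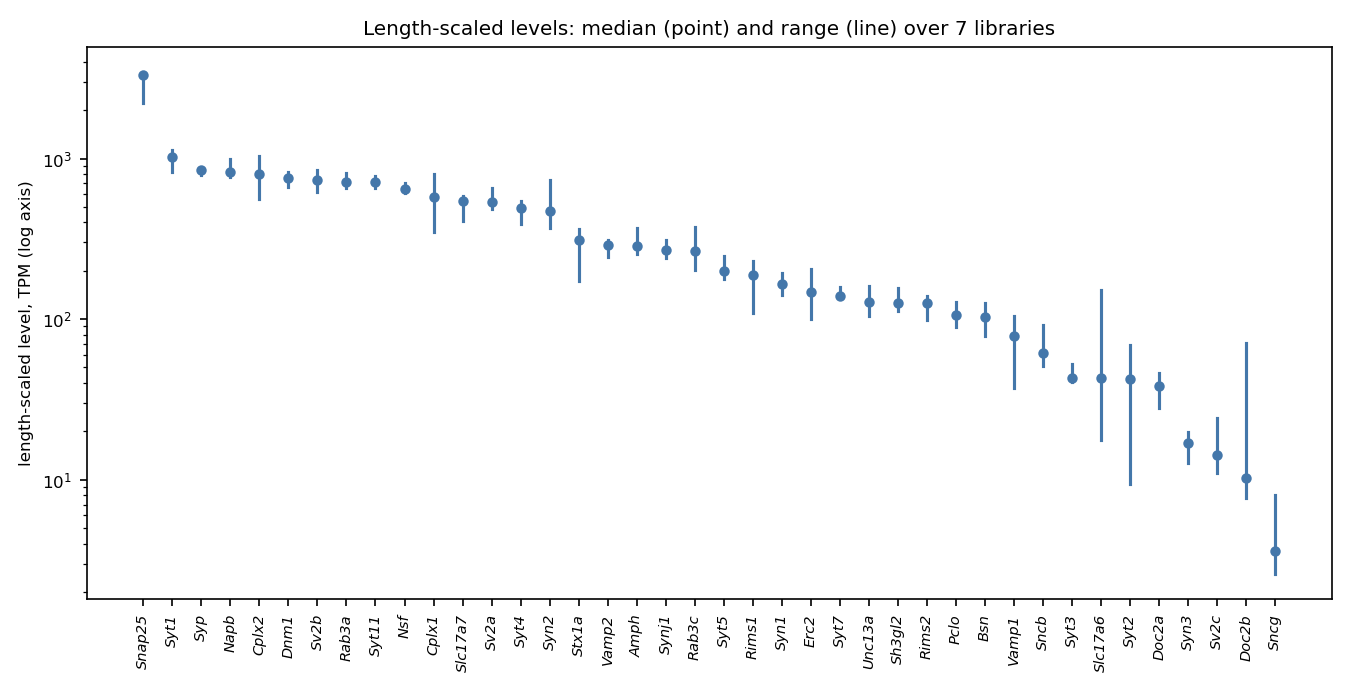
Length-scaled level of each of the 40 genes in TPM on a log axis, with the median over the 7 libraries as a point and the lowest to highest library as a line. Snap25 lies above all others at 3292 TPM, Sncg is lowest at 3.60, and Slc17a6, Syt2 and Doc2b have the longest lines.

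Among the calcium sensors, Syt2 (synaptotagmin 2, GENCODE M21, mm10 chr1:134646677-134762593), the fast sensor of brainstem and parvalbumin neuron terminals, was lower in every KD mouse than in any CD mouse. It measured 109.8, 91.3, 64.2 and 105 CPM in CD replicates 1 to 4 and 48.4, 50.1 and 14.6 CPM in KD replicates 1 to 3. The lowest CD mouse was thus still above the highest KD mouse, and KD replicate 3 was far below the other KD mice. The group means were 92.5 ± 20.5 CPM (SD, n = 4) for CD and 37.7 ± 20.0 CPM (SD, n = 3) for KD. The fitted level in KD was 0.414 of that in CD, a log2 fold change of −1.27 ± 0.40 (SE, edgeR adjusted p = 0.979, exact permutation p = 0.0571). The study itself labelled Syt2, Vamp1, Cplx1 and Pvalb by name in its plot of these same libraries, so their direction here is not independent evidence. Without KD replicate 3 the log2 fold change was −0.89, and among the 4 libraries with Xist it was −1.02 (edgeR adjusted p = 0.0652, from 2 mice per diet, where the other settings gave adjusted p-values from 0.533 to 0.9998). At 4 mice against 3 the exact test of a single gene cannot go below 0.0571, whatever the difference.

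Syt1, the related sensor of most forebrain terminals, was read at 1772, 1710.5, 1888 and 1796 CPM in CD and at 1679, 1887 and 1402 CPM in KD. The groups overlapped, and KD replicate 3 was the lowest of all. Its log2 fold change was −0.10 ± 0.12 (SE, edgeR adjusted p = 0.979, exact permutation p = 0.343), and its sign turned to 0.0056 without CD replicate 4 and KD replicate 3. The ratio of Syt2 to Syt1 within a library does not depend on library scaling: it was 6.20%, 5.34%, 3.40% and 5.83% in CD and 2.88%, 2.65% and 1.04% in KD. No KD ratio reached the lowest CD ratio, and the mean difference was −1.34 on the log2 scale (exact two-sided permutation p = 0.0571, the smallest that 35 splits of these 7 libraries allow; adjusted over the 8 ratios computed, 0.229). Without KD replicate 3 that difference was −0.87.

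The other synaptotagmins gave no raw p of at most 0.05. Syt3, a high-affinity calcium sensor, ranged from 26.5 to 33.9 CPM in CD and from 25.5 to 27.3 CPM in KD. Syt7, which supports slow release and vesicle replenishment, ranged from 206 to 241 CPM in CD and from 208 to 232 CPM in KD. Syt4 and Syt11 bind calcium weakly or not at all, and they ranged from 307 to 419 and from 704 to 823 CPM in CD and from 391 to 420.0 and from 689 to 749 CPM in KD. Syt5 lay between 85.1 and 104 CPM in CD and between 84.6 and 121 CPM in KD. All 5 overlapped between the diets.

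Doc2a and Doc2b encode soluble C2-domain sensors tied to spontaneous and asynchronous release. Doc2b was at 7.27, 9.23, 10.6 and 25.8 CPM in CD and at 6.71, 8.79 and 62.9 CPM in KD. The high values were those of CD replicate 4 and KD replicate 3, the libraries that also had the highest summed level of the 7 hypothalamus and ventral forebrain genes (283 and 786 CPM, against 119 to 160 CPM in the others), whose part in this was not tested. The log2 fold change of Doc2b was 0.98 ± 0.76 (SE, edgeR adjusted p = 0.979, exact permutation p = 0.8) and became −0.74 without KD replicate 3. Doc2a lay between 16.9 and 25.8 CPM in CD and between 15.8 and 26.1 CPM in KD, with a log2 fold change of 0.05 ± 0.20 (SE, edgeR adjusted p = 0.993, exact permutation p = 0.857). The ratio of Doc2b to Doc2a differed by 0.38 on the log2 scale (exact permutation p = 0.629, adjusted over the 8 ratios 0.849) and by −0.49 without KD replicate 3. Both Doc2 genes share exon sequence with a gene on the opposite strand, and the strand setting of the counting is not given in the sources used here.

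Vamp1 (synaptobrevin 1, chr6:125215551-125245964), the vesicle SNARE of fast-firing terminals in the brainstem, spinal cord and some interneurons, measured 223, 204, 159 and 192 CPM in CD and 125, 161 and 76.9 CPM in KD. KD replicate 2 was just above CD replicate 3, and the other KD mice were below every CD mouse. The means were 195 ± 26.9 CPM (SD, n = 4) and 121 ± 42.1 CPM (SD, n = 3), and the log2 fold change was −0.67 ± 0.24 (SE, edgeR adjusted p = 0.979, exact permutation p = 0.114). Without KD replicate 3 it was −0.42, and the raw p was above 0.05 without CD replicate 1 or without CD replicate 2.

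Vamp2, the vesicle SNARE of most forebrain terminals, read 236, 194, 237 and 217 CPM in CD and 220.2, 202 and 240.1 CPM in KD. These values overlapped throughout, and the log2 fold change was 0.01 ± 0.10 (SE, edgeR adjusted p = 0.997, exact permutation p = 0.971), with a sign that turned with scaling by library size alone and without CD replicate 2, CD replicate 4 or KD replicate 3. Within libraries, Vamp1 was 94.4%, 105%, 67.0% and 88.5% of Vamp2 in CD and 56.9%, 79.6% and 32.0% in KD. The ranges overlapped and the mean difference was −0.74 on the log2 scale (exact permutation p = 0.114, adjusted over the 8 ratios 0.229), or −0.38 without KD replicate 3.

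The complexins bind the assembled SNARE complex and both hold and promote fusion. Cplx1 (complexin 1, chr5:108518554-108550024) stood at 368, 314, 244 and 316 CPM in CD and at 255, 221 and 156 CPM in KD. Only CD replicate 3 lay within the KD range. The means were 310.4 ± 50.9 CPM (SD, n = 4) and 210.5 ± 50.6 CPM (SD, n = 3), with a log2 fold change of −0.55 ± 0.19 (SE, edgeR adjusted p = 0.979, exact permutation p = 0.114). Without KD replicate 3 this was −0.36, and the raw p was above 0.05 both then and without CD replicate 1.

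Cplx2, the complexin of cortical pyramidal neurons, was measured at 916, 896, 751 and 561 CPM in CD and at 797, 747 and 1034 CPM in KD. KD replicate 3 was the highest and CD replicate 4 the lowest. The log2 fold change was 0.14 ± 0.19 (SE, edgeR adjusted p = 0.983, exact permutation p = 0.629), and among the 4 libraries with Xist it was −0.23, with a raw p under 0.05. Cplx1 made 40.1%, 35.04%, 32.5% and 56.4% of the Cplx2 counts in CD and 32.0%, 29.6% and 15.04% in KD. The ratios did not overlap, though CD replicate 3 and KD replicate 1 almost met, and the mean difference was −0.73 on the log2 scale (exact permutation p = 0.0571, adjusted over the 8 ratios 0.229). It was −0.38 without KD replicate 3 and −0.29 among the 4 libraries with Xist.

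The remaining SNARE genes gave no raw p of at most 0.05. Snap25 ranged from 3509.7 to 4876 CPM in CD and from 3087 to 4581 CPM in KD. Stx1a (syntaxin 1A), its partner in the plasma membrane, ranged from 93.8 to 204 CPM in CD and from 134 to 194 CPM in KD. Nsf and Napb (β-SNAP), which take used SNARE complexes apart, ranged from 1081 to 1173 and from 1126 to 1246 CPM in CD and from 1028 to 1189 and from 1163 to 1417 CPM in KD. None of these 4 genes separated the diets, and the 6 SNARE and complexin genes had a median log2 fold change of −0.06, with 3 lower and 3 higher in KD.

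**Figure D3:**
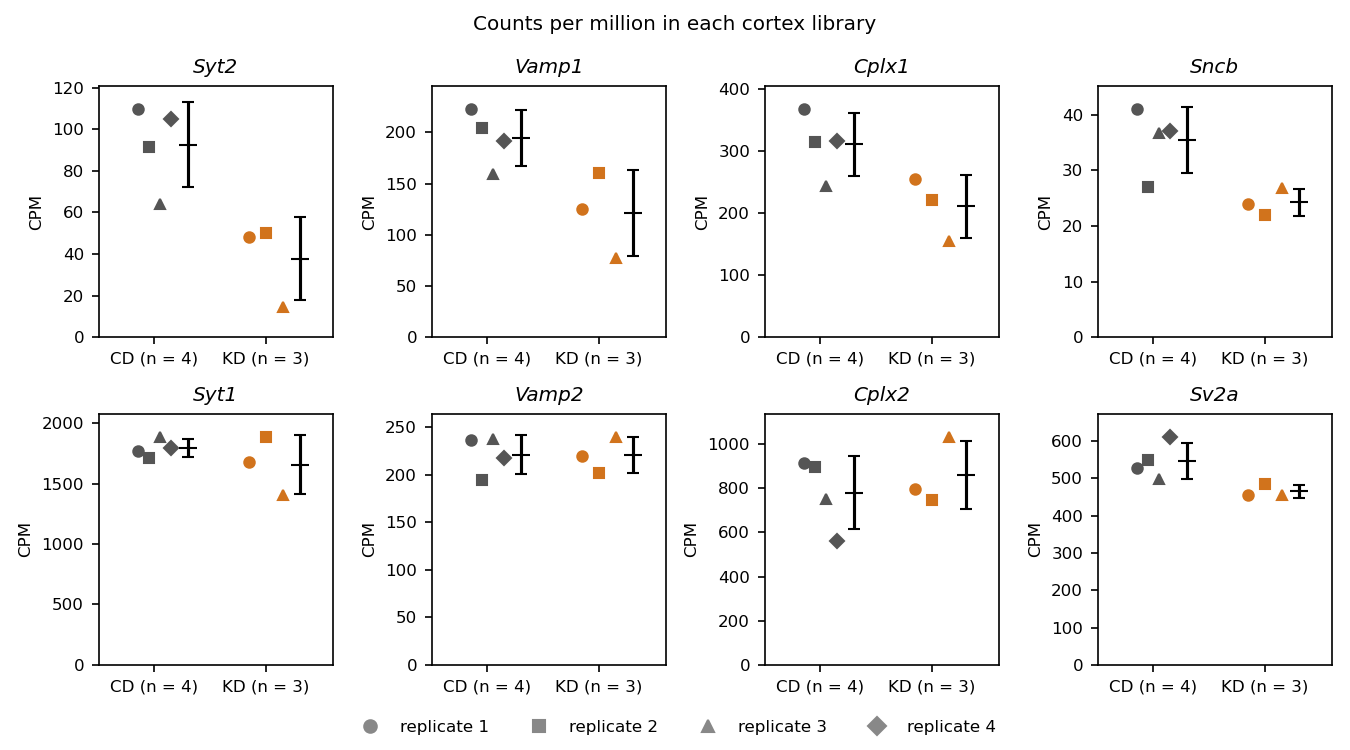
CPM of Syt2, Vamp1, Cplx1 and Sncb (upper row) and of Syt1, Vamp2, Cplx2 and Sv2a (lower row) in each of the 4 CD and 3 KD libraries, with each replicate as a symbol and the mean ± SD beside them; every axis starts at 0. Syt2 runs from 64.2 to 109.8 CPM in CD and from 14.6 to 50.1 CPM in KD, while the Syt1, Vamp2 and Cplx2 points of the diets overlap.

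Of the vesicle membrane proteins, Sv2a (synaptic vesicle glycoprotein 2A, chr3:96181151-96195521), the binding site of the antiseizure drug levetiracetam, was lower in every KD mouse, by a small amount. It measured 527, 548, 497 and 611 CPM in CD and 454, 485 and 456 CPM in KD. The lowest CD and the highest KD mouse were close, and the KD mice differed little from each other. The means were 546 ± 48.4 CPM (SD, n = 4) and 465 ± 17.4 CPM (SD, n = 3), with a log2 fold change of −0.22 ± 0.09 (SE, edgeR adjusted p = 0.979, exact permutation p = 0.0571). The raw p was above 0.05 when CD replicate 2, CD replicate 4, KD replicate 1 or KD replicate 3 was left out, without both CD replicate 4 and KD replicate 3, among the libraries with Xist, in the likelihood-ratio test, with the replicate block, and when libraries were scaled to pan-neuronal genes.

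Sv2c, the form of this glycoprotein most abundant in the basal ganglia, was at 34.7, 28.6, 29.3 and 25.4 CPM in CD and at 21.5, 21.5 and 47.6 CPM in KD. KD replicates 1 and 2 were below every CD mouse and KD replicate 3 was above all of them. In KD replicate 3 the 8 striatal genes also summed to their highest level, 414 CPM against 220.2 to 291 CPM elsewhere, and the part of striatal RNA in this value was not tested. The log2 fold change was 0.03 ± 0.27 (SE, edgeR adjusted p = 0.995, exact permutation p = 1) and turned to −0.43, with a raw p under 0.05, without KD replicate 3. The ratio of Sv2c to Sv2a differed by 0.16 on the log2 scale (exact permutation p = 0.743, adjusted over the 8 ratios 0.849) and by −0.23 without KD replicate 3. Sv2b, the third form, ranged from 1046 to 1407 CPM in CD and from 1236 to 1316 CPM in KD, and Syp from 827 to 930.4 and from 828 to 926 CPM.

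The vesicular glutamate transporters load glutamate into vesicles, Slc17a7 (VGLUT1) mainly in cortical and hippocampal neurons and Slc17a6 (VGLUT2) mainly in thalamic and other subcortical neurons. Slc17a6 was measured at 48.4, 46.8, 37.6 and 167 CPM in CD and at 19.1, 55.2 and 103 CPM in KD. CD replicate 4 and KD replicate 3 were again the high libraries, and the 5 thalamic genes summed to 24.6 and 28.5 CPM there against 10.1 to 16.2 CPM elsewhere, though Lhx9 alone made 10.5 CPM of the sum in KD replicate 3 and at most 0.385 CPM in any other library. In CD replicate 4 the 6 olfactory bulb genes also summed to their highest level, 73.4 CPM against 4.36 to 17.3 CPM elsewhere. The part of thalamic or olfactory bulb RNA in the Slc17a6 level was not tested. The log2 fold change of Slc17a6 was −0.32 ± 0.63 (SE, edgeR adjusted p = 0.984, exact permutation p = 0.743), and it lay between −0.97 and 0.40 when single libraries were left out. Slc17a7 was at 623, 565, 629.6 and 445 CPM in CD and at 570.4, 620.0 and 599.6 CPM in KD, with a log2 fold change of 0.08 ± 0.14 (SE, edgeR adjusted p = 0.983, exact permutation p = 0.8). Slc17a6 made 37.4% of the Slc17a7 counts in CD replicate 4 and between 3.34% and 17.2% in the other libraries, and the ratio differed between the diets by −0.45 on the log2 scale (exact permutation p = 0.743, adjusted over the 8 ratios 0.849). This sign turned without CD replicate 4 (0.14) or KD replicate 1 (0.18), and the difference was −0.74 without CD replicate 3 and −1.01 without KD replicate 3.

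**Figure D4:**
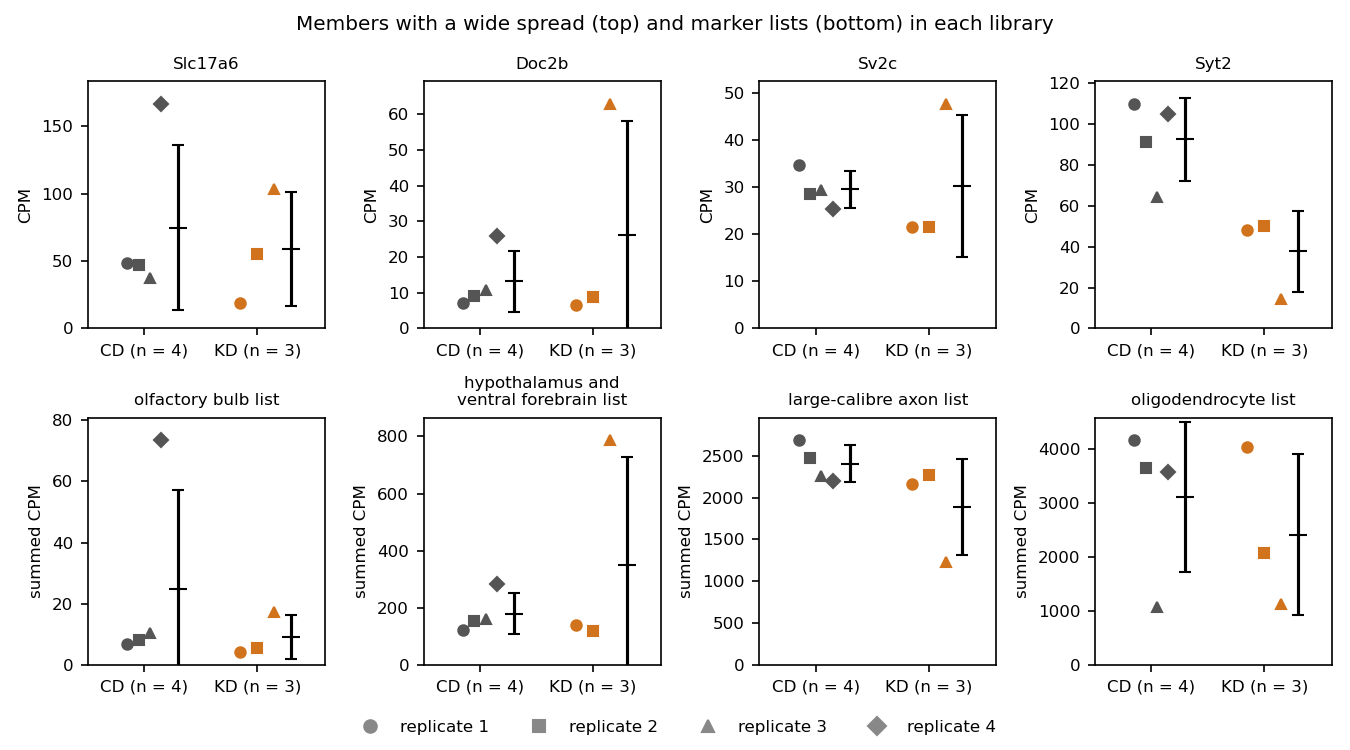
CPM of Slc17a6, Doc2b, Sv2c and Syt2 (upper row) and summed CPM of 4 marker lists (lower row) in each CD and KD library, with symbols for replicates and the mean ± SD beside them, drawn down to 0 only. Slc17a6 and the olfactory bulb list are highest in CD replicate 4 (167 and 73.4 CPM), and Doc2b, Sv2c and the hypothalamus and ventral forebrain list are highest in KD replicate 3 (62.9, 47.6 and 786 CPM).

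The synapsins tether vesicles to each other and to actin, and Rab3 proteins mark vesicles for docking. Syn1 and Syn3 ranged from 96.3 to 127 and from 35.6 to 49.0 CPM in CD and from 102 to 115 and from 31.5 to 47.1 CPM in KD. Syn2 lay between 545 and 795 CPM in CD and between 606 and 1052 CPM in KD. Rab3a ranged from 310.1 to 375 CPM in CD and from 297 to 322 CPM in KD, and Rab3c from 513 to 877 and from 639.8 to 920.0 CPM. All 5 genes overlapped between the diets, and their median log2 fold change was 0.01.

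The active zone scaffold Rims1 binds Rab3 and calcium channels, as does its relative Rims2. Rims1 was at 350.3, 288, 247 and 163 CPM in CD and at 310.5, 341 and 225 CPM in KD, with a log2 fold change of 0.16 ± 0.26 (SE, edgeR adjusted p = 0.983, exact permutation p = 0.686). Rims2 was at 303, 302, 260.0 and 209 CPM in CD and at 254, 281 and 221 CPM in KD, with a log2 fold change of −0.08 ± 0.16 (SE, edgeR adjusted p = 0.983, exact permutation p = 0.571). Both were lowest in CD replicate 4, and the ratio of Rims2 to Rims1 differed by −0.27 on the log2 scale (exact permutation p = 0.114, adjusted over the 8 ratios 0.229), or −0.18 without CD replicate 4.

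Unc13a (Munc13-1), which primes vesicles by opening syntaxin, ranged from 265 to 367 CPM in CD and from 303 to 406 CPM in KD. The giant scaffold proteins Bsn (bassoon) and Pclo (piccolo) ranged from 253 to 399 and from 418 to 570.1 CPM in CD and from 328 to 361 and from 462 to 529 CPM in KD. Erc2 (CAST), another scaffold, spanned 196 to 329 CPM in CD and 272 to 405 CPM in KD. The 6 active zone genes had a median log2 fold change of 0.06, and all of them overlapped between the diets.

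**Figure D5:**
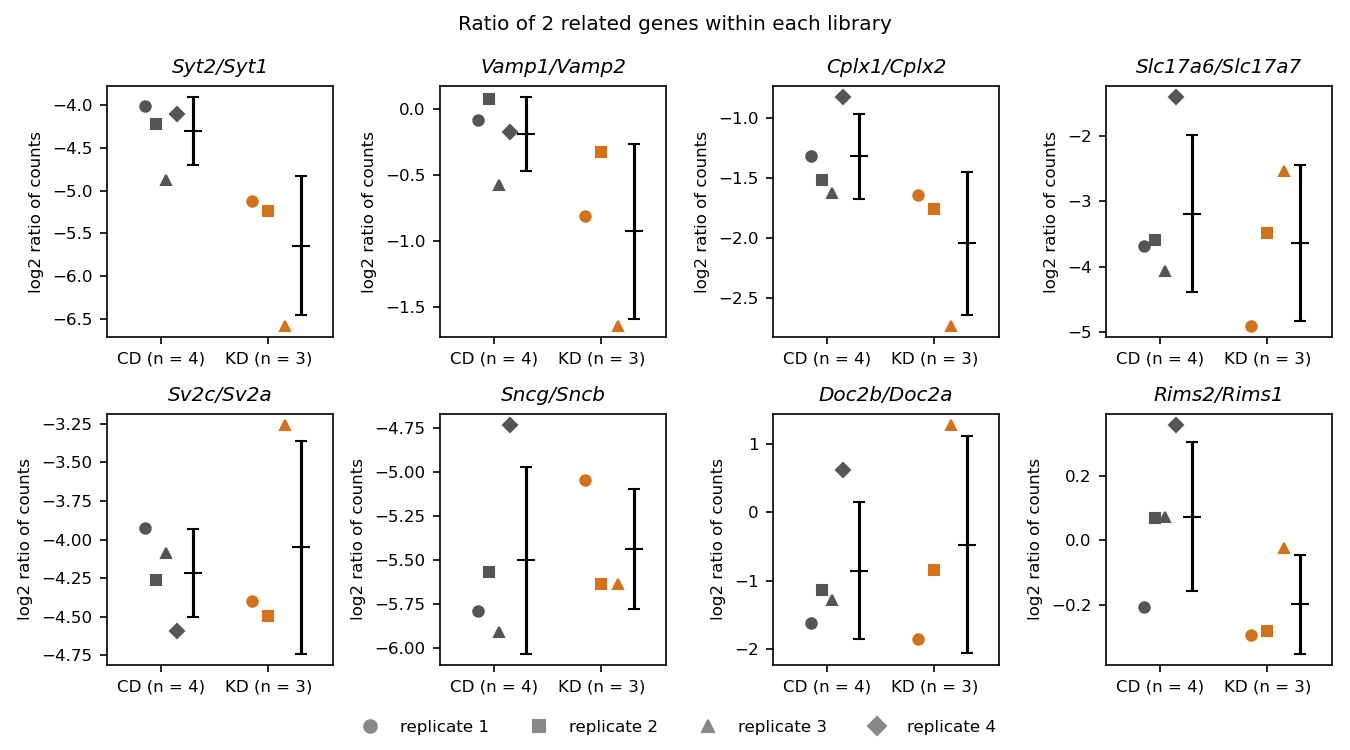
Log2 ratio of the counts of related genes within each library, for 8 pairs, in the 4 CD and 3 KD libraries, with symbols for replicates and the mean ± SD beside them; the vertical axes differ between panels. Syt2/Syt1 and Cplx1/Cplx2 are lower in every KD library than in any CD library, with mean differences of −1.34 and −0.73, while the other 6 pairs overlap.

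Of the genes of vesicle retrieval, Dnm1 (dynamin 1), the GTPase that cuts vesicles from the membrane, was at 902, 846, 816 and 804 CPM in CD and at 762, 762 and 710.4 CPM in KD. Every KD mouse was below every CD mouse, by a small margin. The means were 842 ± 43.9 CPM (SD, n = 4) and 745 ± 29.8 CPM (SD, n = 3), and the log2 fold change was −0.17 ± 0.09 (SE, edgeR adjusted p = 0.979, exact permutation p = 0.0571). Synj1 (synaptojanin 1), which helps new vesicles to shed clathrin, ranged from 403 to 500.3 CPM in CD and from 435 to 467 CPM in KD. Amph (amphiphysin) and Sh3gl2 (endophilin A1), which bend the membrane and recruit dynamin, ranged from 233 to 288 and from 149.7 to 204 CPM in CD and from 239 to 341 and from 152 to 169 CPM in KD. The 4 retrieval genes had a median log2 fold change of −0.06.

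Sncb (β-synuclein, chr13:54758860-54766595) had the smallest raw p of the 40 genes. It was measured at 41.0, 27.0, 36.7 and 37.1 CPM in CD and at 24.0, 22.0 and 26.8 CPM in KD, from 561 to 1440 counts per library. The lowest CD mouse, replicate 2, was almost level with the highest KD mouse, replicate 3, and the other CD mice stood clear of the KD group. The means were 35.5 ± 5.96 CPM (SD, n = 4) and 24.2 ± 2.44 CPM (SD, n = 3), and the fitted KD level was 0.688 of CD, a log2 fold change of −0.54 ± 0.14 (SE, edgeR adjusted p = 0.979, exact permutation p = 0.0571). With single libraries left out the log2 fold change stayed between −0.64 and −0.46, and the raw p was at most 0.05 each time. Sncg (γ-synuclein), which is found mainly in sensory and motor neurons, was at 0.741, 0.568, 0.610 and 1.39 CPM in CD and at 0.727, 0.441 and 0.539 CPM in KD, and at so few counts a difference would be hard to detect. Its log2 fold change was −0.53 ± 0.42 (SE, edgeR adjusted p = 0.979, exact permutation p = 0.229), and the ratio of Sncg to Sncb differed by 0.06 on the log2 scale (exact permutation p = 0.971, adjusted over the 8 ratios 0.971), with a sign that turned without CD replicate 1, CD replicate 3 or KD replicate 1.

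Syt2, Vamp1 and Cplx1 are known for terminals of fast-spiking parvalbumin interneurons, and the levels of parvalbumin interneuron genes are given beside them. The 9 genes of this list were all above 3 counts in every library. They summed to between 601 and 668 CPM in CD and between 477 and 579 CPM in KD, without overlap. In KD 8 of the 9 were lower, beside 51.0% of all genes, 7 of 9 cortical excitatory neuron genes and all 7 oligodendrocyte genes. Kcnc1 and Kcnc2 made the largest parts of the sum, with means of 157 and 207 CPM in CD. Lhx6, Erbb4 and Tmem132c moved little, with log2 fold changes of −0.05, 0.01 and −0.04. Pvalb itself was at 110.1, 107, 67.3 and 76.2 CPM in CD and at 64.4, 67.9 and 18.6 CPM in KD (log2 fold change −0.82 ± 0.41 SE, edgeR adjusted p = 0.979, exact permutation p = 0.114), so that KD replicate 3 was lowest for Pvalb, Syt2, Vamp1 and Cplx1 alike. The 7 genes of large-calibre axons, among them Nefh, summed to 2205 to 2684 CPM in CD and to 2164, 2270 and 1233 CPM in KD, and all 7 were lower in KD. The 7 oligodendrocyte genes summed to 1069 CPM in CD replicate 3 and to 1118 CPM in KD replicate 3, against 2072 to 4152 CPM in the other libraries, and CD replicate 3 was also the lowest CD library for Syt2, Vamp1 and Cplx1. The sum of pan-neuronal genes was 3238 to 3476 CPM in CD and 3321 to 3569 CPM in KD. Its largest part was Map2, at 990 to 1110 CPM in CD and 1200 to 1396 CPM in KD. Map2 had a log2 fold change of 0.30 ± 0.10 (SE, edgeR adjusted p = 0.979). Of the 9 pan-neuronal genes, 6 were lower and 3 higher in KD, with a median log2 fold change of −0.09. The sum of the other interneuron genes was 644 to 672 CPM in CD and 627 to 662 CPM in KD. Neither sum showed KD replicate 3 or CD replicate 3 far from the rest, but single interneuron genes did differ. Calb2 and Reln were at 49.2 and 311 CPM in KD replicate 3 and at 34.1 and 306 CPM in CD replicate 4. Elsewhere they reached at most 9.64 and 172 CPM. Lamp5 went the other way, at 64.1 and 65.5 CPM in those libraries against 153 to 191 CPM elsewhere. The part of these cell types and tissues in the 5 lower genes was not tested.

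Genes of the same machinery outside the 40 were taken from a list of 74, all of them tested. In KD 34 were lower and 40 higher, with a median log2 fold change of 0.02, and 2 of the 74 (2.70%) passed a raw p of 0.05, near the 3.19% of all genes. Sh3gl3 (endophilin A3), at 27.7 to 31.8 CPM in CD and 33.8, 37.3 and 46.1 CPM in KD, was higher in every KD mouse than in any CD mouse, with a log2 fold change of 0.40 ± 0.12 (SE, edgeR adjusted p = 0.979, exact permutation p = 0.0571). It was 0.24 without CD replicate 4 and KD replicate 3 and 0.17 among the libraries with Xist, with a raw p above 0.05 in both. The clathrin light chain gene Cltb, at 81.8 to 103 CPM in CD and 81.1, 82.5 and 78.0 CPM in KD, was lower, with a log2 fold change of −0.22 ± 0.10 (SE, edgeR adjusted p = 0.979, exact permutation p = 0.114). Its raw p was above 0.05 in the likelihood-ratio test, DESeq2, limma-voom and with robust=FALSE, without CD replicate 4 and KD replicate 3, and when any single library other than CD replicate 3 was left out. Among the 4 libraries with Xist, 12 of the 40 genes passed a raw p of 0.05, 10 lower and 2 higher in KD, where 9.75% of all genes did so. Without CD replicate 4 and KD replicate 3 there were 4, Syt2, Vamp1, Sv2c and Sncb, all lower in KD, where 2.54% of all genes were called.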

How the data were processed

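Total RNA from 10 mg of each frozen cortex was made into stranded libraries and sequenced in 50-bp pairs. The authors aligned reads to mm10 with STAR and deposited raw counts per gene symbol and mouse; versions, annotation and strand setting are not given in the sources used here. Diet and replicate came from the labels. Counts were divided by each library's total for CPM. KD was compared with CD in edgeR 4.0.16 (R 4.3.3) with filterByExpr, TMM scaling, estimateDisp, glmQLFit (robust=TRUE) and glmQLFTest, which left 15881 genes, and Benjamini-Hochberg adjustment covered all of them. TMM factors were 0.978 to 1.038. Counts of this comparison were also simulated, and a changed gene was called recovered at an adjusted p under 0.05. Log2 changes of 1 were recovered for 56.6% of 198 genes (15748 tested) and changes of 2 for 80.8% of 198 (15744 tested). The simulated libraries differed only by depth, diet and an independent spread of each gene. None stood apart on many genes as CD replicate 4 and KD replicate 3 did, so these shares may not hold for the measured libraries. Ratios of related genes, and log2 CPM of single genes, were compared by exact two-sided permutation over the 7 libraries; the test of single genes was added after seeing the data and is printed in place of their raw p. Lengths and coordinates are from GENCODE M21, in which 21735 symbols named a single gene.

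The 40 genes, the other lists and the tests were chosen with earlier results of these data known. Fold changes are given for genes that passed a raw p of 0.05, genes whose diets do not overlap, and both genes of the 8 pairs; others are given by range. The sources used here do not say whether replicate numbers pair the mice. Depth limits Sncg; p-values cover the spread between mice. The alternatives were RLE, upper-quartile, library size and pan-neuronal scaling, other filters, the likelihood-ratio test, DESeq2 1.42.0, limma-voom 3.58.1, robust=FALSE, Xist as a covariate, a replicate block and leaving out libraries. Subsets without CD replicate 4 and KD replicate 3, or with Xist libraries alone, were chosen after seeing the data.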

Additional observations from a re-analysis of the deposited data

Results flagged for a closer look

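The Slc17a6 level of CD replicate 4 stood apart from the other CD libraries. On the log2 scale it was 7.38, where the nearest CD library was at 5.60 and the farthest at 5.23, so that the gap made 0.8311 of the range, just above the 95% critical value of Dixon's test for 4 samples. Of 48 values examined in the CD group this was the only 1 past that limit, and chance gives about 2.4.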

How the results depend on the processing

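No setting gave any of the 40 genes an adjusted p under 0.05. The number with a raw p of at most 0.05 was 5. It stayed between 4 and 6 under other scalings, filters and tests, where 2.81% to 3.68% of all genes were called. With the Xist covariate it was 7 (6.39% of all genes), and with the replicate block 9 (6 lower, 3 higher, 5.89% of all genes). Among the libraries with Xist it was 12 (9.75%). With single libraries left out it lay between 3 (without CD replicate 1, 1.63%, or CD replicate 2, 2.13%) and 6 (without CD replicate 3, 7.38%). The number with a raw p of at most 0.01 was 3 with the likelihood-ratio test, 4 with DESeq2, 2 with limma-voom, 4 with the Xist covariate, 4 with the replicate block, 3 without CD replicate 4 and KD replicate 3, 4 among the libraries with Xist, and 0 to 2 with single libraries left out. The share of all genes at 0.01 was taken for the main fit alone (0.321%), so these counts have no background to be read against. Of the 74 other presynaptic genes, 2 passed a raw p of 0.05, where 3.19% of all genes did. With limma-voom 1 passed (2.81% of all genes), with robust=FALSE 1 (3.17%), with the Xist covariate 11 (6.39%) and with the replicate block 11 (5.89%). The set without CD replicate 4 and KD replicate 3 gave 1 (2.54%) and the libraries with Xist 7 (9.75%). Left-out libraries gave 1 to 10, the 10 without CD replicate 3 (7.38%). The median log2 fold change of the 40 genes became −0.0708 without CD replicate 4 and KD replicate 3 and −0.0685 among the libraries with Xist. The cause of these changes was not tested.

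For each gene, the mean log2 CPM of the diet group was subtracted from each of its libraries. These deviations, not the levels themselves, correlated at 0.251, 0.195 and 0.098 between same-numbered libraries. Libraries with unlike numbers were not set beside them, so these values cannot show whether the numbers pair the mice. Replicates 1, 2 and 3 matched in sex across the diets by Xist and Ddx3y, so the block also carries sex. With the replicate block, signs turned for Doc2a (−0.0854), Vamp2 (−0.0159), Cplx2 (−0.00803), Sv2c (−0.138), Slc17a7 (−0.0278), Slc17a6 (0.137) and Rims1 (−0.0291). Without CD replicate 4 and KD replicate 3 they turned for Syt1 (0.00564), Doc2a (−0.189), Doc2b (−0.206), Vamp2 (−0.0656), Cplx2 (−0.136), Sv2c (−0.509) and Slc17a7 (−0.0142). Among the libraries with Xist they turned for Syt1 (0.0411), Doc2a (−0.0965), Doc2b (−0.0765), Vamp2 (−0.0222), Cplx2 (−0.225) and Sv2c (−0.550). Vamp2 also turned with library size alone (−0.00287) and with genes of at least 1 count (−0.00239), and Sv2c with limma-voom (−0.0774) and the Xist covariate (−0.0324). With single libraries left out, the log2 fold change ranged from −0.217 to 0.0148 for Syt1, −0.0814 to 0.230 for Doc2a, −0.736 to 1.499 for Doc2b, −0.0460 to 0.0562 for Vamp2, −0.00132 to 0.227 for Cplx2, −0.434 to 0.221 for Sv2c, −0.0282 to 0.141 for Slc17a7, −0.967 to 0.401 for Slc17a6, −0.0180 to 0.336 for Rims1 and −0.201 to 0.0109 for Rims2. The log2 fold changes of Syt2, Vamp1, Cplx1, Sv2a, Dnm1 and Sncb were below 0 under every setting tried, and so was that of Sncg wherever it was tested (it did not pass the filter of 1 CPM in 3 libraries).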
